A study of Rattus norvegicus with 9 samples.

Results

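The comparison described here sets pulmonary artery smooth muscle cells kept in 1% oxygen with quercetin against the same kind of cells kept in 1% oxygen without it. Its members were taken from the sample titles, and they are the 3 hypoxia plus quercetin arrays and the 3 hypoxia arrays, 6 of the 9 arrays in the series. The other 3 arrays are normoxia controls, which entered the fit to share in the estimate of the spread and are quoted only where they help to place a level. The cells came from the pulmonary arteries of male SD rats and were used at generation 4. They spent 24 h without serum and then 24 h in medium with 10% FBS, in an airtight chamber with 1% O2 and 5% CO2 for both groups compared here. Quercetin was added for those 24 h in one group, while the protocol describes 0.1% DMSO as the vehicle given to controls. The quercetin dose is missing from the labels, which also do not say sample by sample which hypoxia cultures received the vehicle. Nor do they say that the 3 arrays of a group came from separate animals or cultures, so the p-values below measure the spread between these arrays, which may be technical.

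Quercetin is a plant flavonol that inhibits many protein kinases and that cells methylate, sulfate and glucuronidate. In low oxygen, smooth muscle cells of the pulmonary artery stabilise hypoxia-inducible factors (HIFs), which turn on glycolysis, angiogenic factors and pro-survival genes, and the muscle layer of the vessel thickens as the cells divide and lay down matrix. In a cell cycle, E2F factors released from the retinoblastoma protein turn on the enzymes of DNA synthesis, and a later wave of transcription supplies the proteins of mitosis. NF-kB and interferon regulatory factors drive the inflammatory programme that these cells share with other cells of the vessel wall.

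Signal is given throughout as log2 of the processed spot intensity over the 75th percentile of its array, so that 0 is the 75th percentile, 1 unit is a 2-fold step, and a change is the quercetin mean minus the hypoxia mean with its standard error. Each array held 45018 spots, of which 43379 were not controls. Of those 43379, 64.6% to 67.0% were well above background on hypoxia arrays 1 and 2 against 53.4% on hypoxia array 3. The quercetin arrays gave 54.4%, 69.1% and 68.9%. Log signals of arrays of one group correlated at 0.989 to 0.993 across genes, and those of the different groups at 0.950 to 0.959. The first principal component of the 6 arrays held 77.8% of the variance and separated the groups. The hypoxia arrays lay on one slide and the quercetin arrays on another, and the effects of slide and quercetin therefore cannot be told apart. Of 10 smooth muscle markers 9 had a probe, the exception being Acta2, and those 9 cleared background on all 6 arrays. Pecam1, Vwf, Tek, Tie1, Cldn5 and Emcn of endothelium, Aif1, Itgam, Cd3e, Ms4a1 and Spi1 of leukocytes, and Epcam, Cdh1 and Krt19 of epithelium were well above background on 0 of the 6 arrays. Other markers of these cells did clear it. On all 3 hypoxia arrays this held for 2 of 10 endothelial, 8 of 15 leukocyte and 7 of 12 epithelial and mesothelial markers. On all 3 quercetin arrays it held for 1, 7 and 4.

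Quercetin moved a large part of the transcriptome, in both directions. Of 22102 genes tested, 12907 (58.4%) passed limma's moderated test at an adjusted p under 0.05, 5937 of them higher with quercetin (26.9%) and 6970 lower (31.5%). A change of at least 2-fold beside the adjusted p was seen in 4557 genes (20.6%), 2369 higher (10.7%) and 2188 lower (9.90%), and 518 genes rose and 319 fell by at least 4-fold. The 3 arrays of one group lay wholly above or below those of the other for 15707 genes (71.1%), 7065 higher (32.0%) and 8642 lower (39.1%). These shares are the background against which each gene class below is read, and the median change over all genes was -0.08. Normexp background correction of the raw spot means moved that median to 0.13 and left 2820 genes higher and 3339 lower; 6114 of the 12907 calls remained and 0 turned to the opposite call, so changes are read relative to the median.

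Bright genes leaned downward. With genes ranked by mean signal into 10 equal bins, the median change lay between -0.05 and 0.02 in each of the dimmest 8 bins, was -0.14 in the ninth and -0.38 in the brightest. In the brightest bin, 1204 of 2211 genes (54.5%) fell and 282 (12.8%) rose. For lists with many members in the brightest bin, that number and the counts after quantile normalization, which forces all arrays to one distribution, are given as well.

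**Figure D1:**
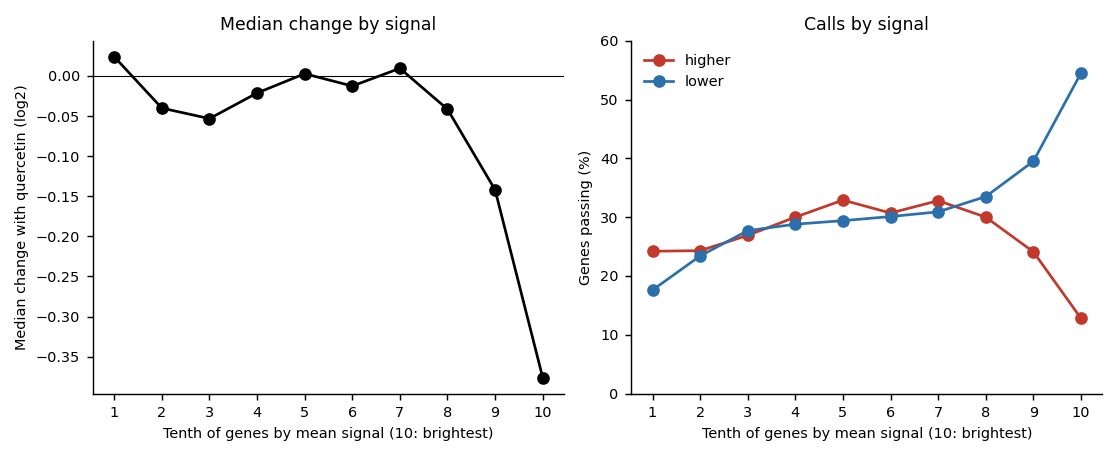
Median change with quercetin (left, log2) and the share of genes that passed in each direction (right, percent) in 10 bins of genes ordered by mean signal from the dimmest to the brightest. The brightest bin had a median of -0.38, with 54.5% of its genes lower and 12.8% higher.

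**Figure D2:**
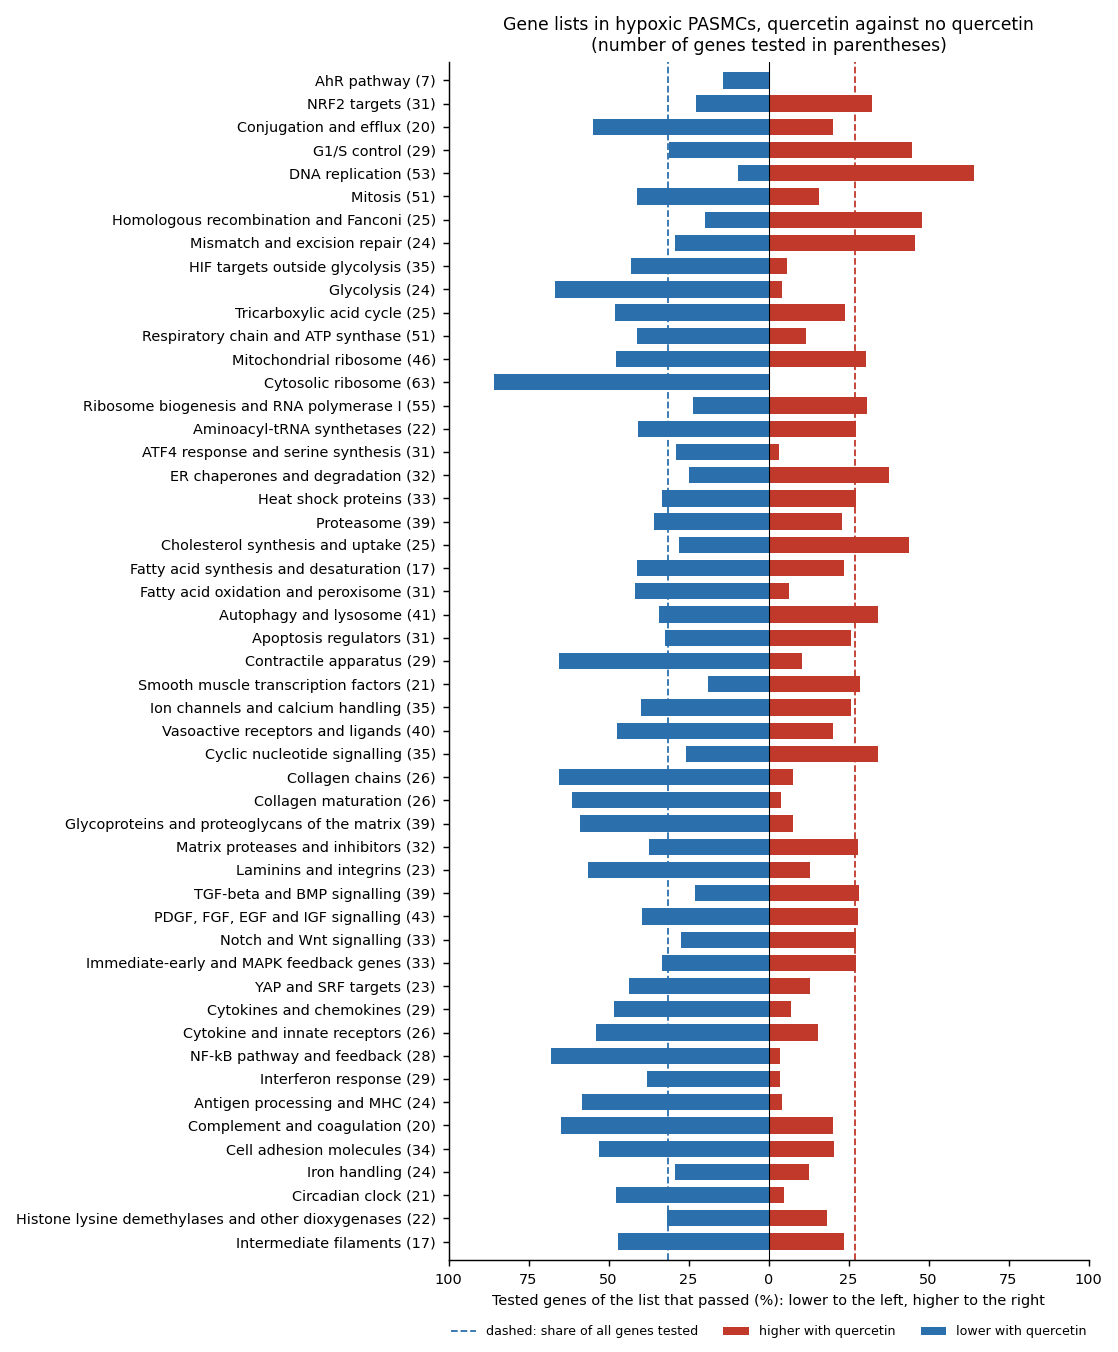
Share of the tested genes of each list that passed higher (red, to the right) or lower (blue, to the left) with quercetin, in percent, with the number tested in parentheses. The dashed lines mark the shares over all genes tested, 26.9% higher and 31.5% lower, and DNA replication stands furthest to the right at 64.2% higher.

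Genes of the G1 to S transition moved in both directions. Cyclin E1, E2F1 and MYC rose, while the D cyclins and the inhibitor p27 fell. Ccne1, which partners CDK2 at entry into S phase, gave 0.13, 0.17 and 0.21 on the hypoxia arrays and 2.89, 2.73 and 2.82 with quercetin, an increase of 2.64 ± 0.17 (adjusted p = 9.7e-06). E2f1, the activator of the S-phase genes, gave 0.06, 0.02 and 0.11 in hypoxia and 2.40, 2.23 and 2.39 with quercetin, an increase of 2.28 ± 0.19 (adjusted p = 3.6e-05), while its other probe rose by 1.00. The groups did not overlap for either gene, and the quercetin arrays of Ccne1 and E2f1 lay above all 3 normoxia arrays as well. E2f4, which pairs with pocket proteins, rose by 1.46 ± 0.08, its partner Tfdp1 by 0.97, and Rb1, the pocket protein that holds E2F in check, by 0.94. Myc, the growth-promoting transcription factor, gave 1.68, 1.78 and 2.04 in hypoxia and 3.14, 3.56 and 2.93 with quercetin (1.38 ± 0.17).

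The early G1 cyclins moved the other way. Ccnd1, which activates CDK4 in response to mitogens, stood at 4.87, 4.92 and 4.90 in hypoxia and 3.74, 3.59 and 3.53 with quercetin, a change of -1.27 ± 0.29 (adjusted p = 0.006), and a further probe gave -1.28. Cdkn1b, which encodes the CDK inhibitor p27, stood at 5.81, 5.80 and 5.66 in hypoxia and 4.61, 4.81 and 4.50 with quercetin, a change of -1.12 ± 0.32 (adjusted p = 0.017). No array of one group reached the other group in either gene, but the Cdkn1b call was lost without quercetin array 3 and after normexp or quantile normalization. Ccnd3 fell by 0.78 and Cdkn2c, an inhibitor of CDK4 and CDK6, by 0.90. Cdkn1a, encoding the inhibitor p21, changed by -0.08 without passing (adjusted p = 0.53), but its change turned to 0.43 (adjusted p = 0.0056) after quantile normalization. Over the whole G1/S list, 13 of 29 tested genes rose and 9 fell, with a median of 0.23.

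DNA replication genes rose more often than any other class listed. Of 53 tested, 34 rose (64.2%, against 26.9% of all genes) and 5 fell, with a median of 0.68 against -0.08. The counts were 35 and 5 after quantile normalization and 23 and 4 after normexp. Mcm3, a subunit of the replicative helicase, gave -0.85, -0.78 and -0.88 in hypoxia and 1.12, 0.92 and 1.11 with quercetin, an increase of 1.89 ± 0.19, and its further probe rose by 1.98. Pclaf, which binds the sliding clamp PCNA, gave 0.00, 0.13 and 0.25 in hypoxia and 3.27, 2.69 and 2.94 with quercetin (2.84 ± 0.27). Pcna itself moved less, from 2.69, 2.67 and 2.64 to 3.39, 3.75 and 3.47 (0.87 ± 0.19, adjusted p = 0.005). In these genes the groups stood apart on every array.

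The rise took in origin recognition, helicase loading, polymerase and chromatin assembly. Orc1, of the origin recognition complex, rose by 3.04 ± 0.16, with 2 of 3 hypoxia arrays above background. Gins3, of the helicase-activating GINS complex, rose by 1.73 ± 0.16, and Pole, the leading-strand polymerase, by 1.98 ± 0.21, though Pole had 2 of 3 hypoxia arrays above background and did not pass after normexp. Chaf1a and Chaf1b, which deposit histones behind the fork, rose by 1.82 ± 0.14 and 2.02 ± 0.14. The exceptions included Asf1b, which hands histones to that assembly factor and fell by 1.21 ± 0.10, and Rfc1, the large subunit of the clamp loader, which fell by 1.15 ± 0.11.

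Promoters of these genes were scanned in RefSeq's GRCr8 table for E2F-type letters, TTTCCCGC, TTTGGCGC, TTTCGCGC or TTTGCCGC on either strand, in 250 bases before and 50 after the start. They occurred in 19 of the 45 replication genes with a promoter (42.2%), against 2.3% of all 27457 promoters and 4.1% of those of genes tested. They were found in 10 of the 28 that rose, 2 of the 4 that fell and 7 of the 13 that did not pass, so their share was not higher among the genes that rose. A match is a description of letters, not evidence of a bound site. The Mcm3 promoter (chr9:30733745-30733996, minus strand) is shown because, after Pole, its gene rose furthest among replication genes with such a match; capitals mark it.
Mcm3: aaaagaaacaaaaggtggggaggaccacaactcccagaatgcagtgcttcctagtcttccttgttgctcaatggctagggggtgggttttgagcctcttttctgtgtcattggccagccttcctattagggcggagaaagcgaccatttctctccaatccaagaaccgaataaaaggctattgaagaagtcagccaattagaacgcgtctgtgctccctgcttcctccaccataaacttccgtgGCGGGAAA

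Mitotic genes went down more often than up. Of 51 tested, 21 fell and 8 rose, and the median was -0.21. The count of lower genes was 19 after quantile normalization, 15 after scaling to the spike-in probes and 14 after normexp, where the median relative to all genes stayed below 0. Ccnb1, the cyclin that brings cells into mitosis, gave 2.03, 2.06 and 1.85 in hypoxia and 0.00, 0.13 and -0.07 with quercetin, a change of -1.96 ± 0.12 (adjusted p = 8.3e-06). All 3 quercetin arrays lay below the hypoxia arrays and below the normoxia arrays. Plk1, a kinase of mitotic entry, fell by 1.30 ± 0.12, Ube2c, which feeds the anaphase-promoting complex, by 1.55 ± 0.13, and the central spindle kinesins Kif23 and Kif20a by 1.16 and 1.14. Cenpn, of the inner kinetochore, and the kinase Melk rose by 1.19 ± 0.09 and 1.10 ± 0.11. Mki67, the proliferation antigen, fell by 0.45 (adjusted p = 0.0043), a call lost after normexp.

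The CCAAT box bound by NF-Y occurred in 35 of the 45 mitotic genes with a promoter (77.8%), against 37.7% of all promoters: in 17 of the 18 that fell, 4 of the 7 that rose and 14 of the 20 that did not pass. The cell-cycle homology letters TTTGAA or TTCGAA, which repress mitotic genes outside G2, occurred in 33 of the 45 (73.3%, against 19.5%). They were found in 14 of the 18 that fell, 6 of the 7 that rose and 13 of the 20 that did not pass. Their share was thus not higher among the genes that fell than among those that rose. The Ccnb1 promoter (chr2:33655226-33655475, minus strand, GRCr8), shown because its gene fell furthest among those with the box, holds 2 CCAAT boxes, in capitals.
Ccnb1: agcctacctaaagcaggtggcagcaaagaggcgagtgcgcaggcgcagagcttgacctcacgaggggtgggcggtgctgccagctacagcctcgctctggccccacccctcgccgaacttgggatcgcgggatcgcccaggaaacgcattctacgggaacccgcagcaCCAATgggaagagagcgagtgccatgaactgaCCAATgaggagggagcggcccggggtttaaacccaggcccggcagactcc

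Genes of homologous recombination and the Fanconi pathway rose more often than they fell, 12 against 5 of 25 tested (median 0.33; 8 and 3 after normexp). Brca2, a core factor of that repair route, gave -2.33, -2.31 and -2.21 in hypoxia and -0.13, -0.32 and -0.21 with quercetin, an increase of 2.07 ± 0.08 (adjusted p = 2.4e-06), and a further probe gave 2.04. Its normoxia arrays, at -2.16, -2.06 and -2.15, lay with the hypoxia arrays, so the high level was seen on the quercetin arrays alone. Palb2, the partner that brings BRCA2 to chromatin, gave -1.54, -1.02 and -0.94 in hypoxia and 0.28, 0.19 and 0.40 with quercetin (1.45 ± 0.16). Exo1, which resects ends, rose by 1.69 ± 0.19. Fancc, of the Fanconi core, and Nbn, a break sensor, fell by 0.60 and 0.71, the former not past the threshold after normexp.

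Among mismatch and excision repair genes 11 of 24 rose and 7 fell, a lean that normexp did not keep (5 and 5). Msh3, of mismatch repair, rose by 1.36 ± 0.11. Ercc4, an excision nuclease subunit, rose by 1.24 ± 0.12. The damage sensor Ddb2 gave -2.37, -1.94 and -1.97 in hypoxia and -0.77, -1.14 and -0.76 with quercetin (1.21 ± 0.17, adjusted p = 4.1e-04), and its partner Ddb1 fell by 1.00.

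**Figure D3:**
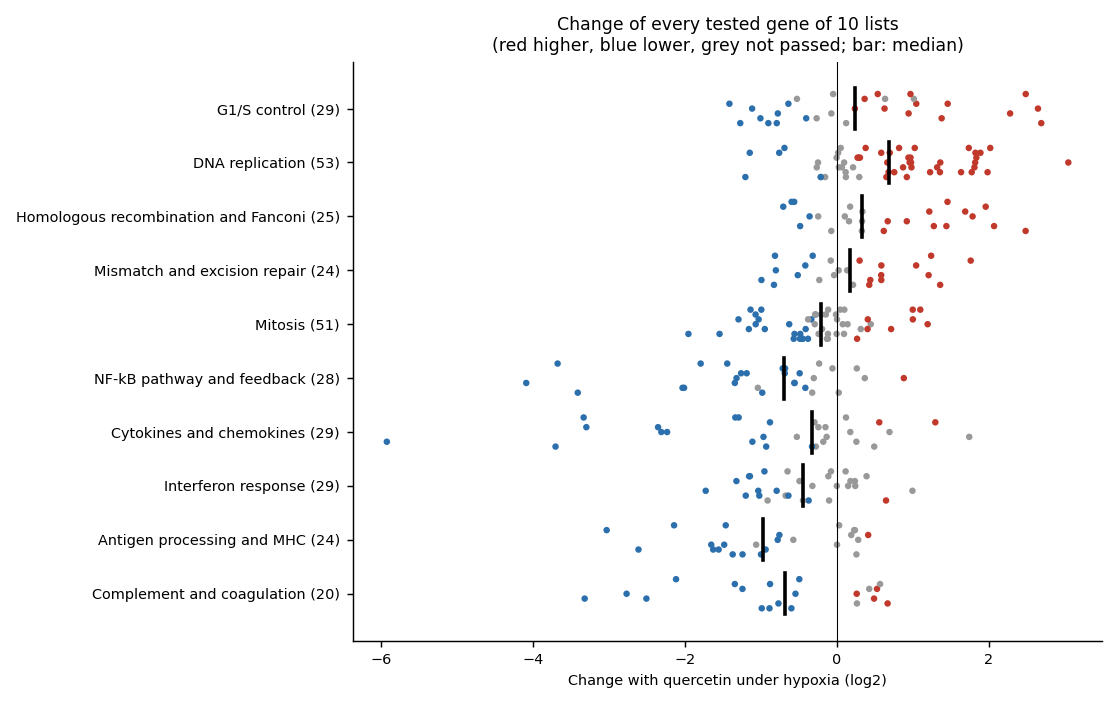
Change with quercetin (log2) of each tested gene in 10 lists of cell division, repair and immune genes, red where it rose, blue where it fell and grey where it did not pass, with a bar at the list's median. The medians run from 0.68 for DNA replication to -0.97 for antigen processing and MHC.

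Most tested genes of the NF-kB pathway fell. Of 28 tested, 19 fell (67.9%, against 31.5% of all genes) and 1 rose, with a median of -0.70. Quantile normalization and normexp each gave 16 lower and 1 higher. Bcl3, a nuclear IkB protein that docks on p50 and p52, gave 5.08, 5.03 and 5.05 in hypoxia and 1.56, 1.77 and 1.59 with quercetin, a change of -3.41 ± 0.13 (adjusted p = 1.8e-06). The adhesion molecule Vcam1 gave -0.39, -0.30 and -0.50 in hypoxia and -3.90, -4.18 and -4.15 with quercetin (-3.68 ± 0.22), where 2 of 3 arrays were above background. The signalling adaptor Traf1 gave -1.14, -0.97 and -1.01 in hypoxia and -5.79, -4.55 and -5.05 with quercetin (-4.09 ± 0.27), again with 2 of 3 quercetin arrays above background. For these 3 genes the arrays of the groups were separated by more than 3 log2 units. The inhibitor Nfkbie fell by 1.45 ± 0.08 and Icam1, which leukocytes grip, by 1.19 ± 0.12. Chuk, which encodes the kinase IKK alpha, was the gene that rose, by 0.88 ± 0.10.

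The NF-kB site occurred in 22 of the 23 list members with a promoter (95.7%), against 48.5% of all promoters and 65.0% of those of genes tested: in 17 of the 17 that fell, 5 of the 5 that did not pass, and not in the one that rose. The Vcam1 promoter (chr2:206742784-206743033, minus strand, GRCr8) is shown because it holds 3 matches in close succession, in capitals.
Vcam1: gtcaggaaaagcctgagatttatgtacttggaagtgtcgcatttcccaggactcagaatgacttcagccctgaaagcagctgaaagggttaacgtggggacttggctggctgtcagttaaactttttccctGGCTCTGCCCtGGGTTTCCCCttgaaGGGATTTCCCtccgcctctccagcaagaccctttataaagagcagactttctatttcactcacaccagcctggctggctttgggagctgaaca

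Cytokine and chemokine genes fell more often than they rose, and 2 chemokines moved out of the range of detection. Of 44 listed cytokines and chemokines, 42 had a probe and 29 were tested. Among the 29, 14 fell and 2 rose (median -0.33), with 8 and 2 after normexp. Ccl19, which guides T cells and dendritic cells, was well above background on 3 of 3 hypoxia arrays and on 0 of 3 with quercetin, a fall of at least 21.2-fold. Ccl17 showed the same pattern, a fall of at least 6.38-fold. The inflammatory chemokine Ccl5 gave 0.73, 0.78 and 0.58 in hypoxia and -3.30, -1.64 and -2.98 with quercetin (-3.34 ± 0.36), quercetin array 2 lying above the other two. Il6, the acute-phase cytokine, went the other way, from -3.00, -2.98 and -2.99 to -2.20, -0.73 and -2.16 (1.29 ± 0.42, adjusted p = 0.028). Quercetin array 2 was again the high one for Il6, and the call was lost on leaving out single arrays. Cx3cl1, a membrane-bound chemokine, rose by 0.56 ± 0.19 (adjusted p = 0.034), with a further probe at 0.48. Il15 fell by 1.34 ± 0.09, but not past the threshold after normexp.

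Receptors for cytokines also fell more often than they rose, with 14 of 26 tested lower and 4 higher (8 and 2 after normexp, and 7 higher without quercetin array 2). Il1rap, the shared subunit of interleukin-1 and interleukin-33 receptors, gave 4.49, 4.40 and 4.44 in hypoxia and 1.66, 1.74 and 1.75 with quercetin, a change of -2.73 ± 0.10 (adjusted p = 1.7e-06). Its groups lay more than 2 log2 units apart. Tnfrsf1a, the main TNF receptor, fell by 1.32 ± 0.10, Il13ra1 by 1.22 ± 0.11 and Ifngr2 by 0.82 ± 0.08. The interleukin-17 receptor Il17ra rose by 1.22 ± 0.13 and Il1r1 by 0.45.

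In the interferon list 38 of 44 genes had a probe and 29 were tested; 11 fell (37.9%, near the 31.5% of all genes) and 1 rose, with a median of -0.45. After normexp 3 fell and 1 rose, and the median was 0.08, which is -0.05 relative to all genes. Irf7, the amplifier of type I interferon, fell by 1.73 ± 0.22 and Irf5 by 1.20 ± 0.10. The ubiquitin-like Isg15 fell by 1.32 ± 0.12 and Ifi44 by 0.80 ± 0.10, both calls lost after normexp. Irf3, which is switched on by phosphorylation, rose by 0.64.

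In the antigen list 14 of 24 tested genes fell and 1 rose, with the lowest median of the functional lists, -0.97, and 11 and 0 after normexp. Psmb8, a catalytic subunit of the immunoproteasome, gave 1.75, 1.72 and 1.58 in hypoxia and -1.42, -1.22 and -1.40 with quercetin, a change of -3.03 ± 0.16 (adjusted p = 4.9e-06), well below the normoxia arrays too. Psmb9, its neighbour in the proteasome core, fell by 2.15 ± 0.10, the peptide transporter Tap2 by 1.63 ± 0.16 and the loading chaperone Tapbp by 1.49 ± 0.11. The proteasome activator subunits Psme1 and Psme2 fell by 1.00 and 0.94, and the class II chain RT1-Db1 by 1.66 ± 0.11. RT1-N3, a class I gene, rose by 0.41; near-identical class I genes can share a probe's signal, so its identity is uncertain. The summed signal of the leukocyte markers was 4.88 to 5.33 in hypoxia and 3.79 to 4.05 with quercetin, in units of the array's 75th percentile. This sum and those of other markers below add unlogged signals, so the brightest members weigh most. Of its 9 tested genes 4 fell and 1 rose; Cd74 fell by 1.56 and Lyz2 by 1.65, while Cd68 rose by 1.5. The part of these cells in the result was not tested. In bulk RNA, fewer cells of a type and less RNA per cell cannot be told apart.

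The core of the interferon-stimulated response element occurred in 9 of the 21 antigen genes with a promoter (42.9%), against 3.8% of all promoters, and in 14 of 23 interferon genes (60.9%). Among the interferon genes it was found in 5 of the 9 that fell, 0 of 1 that rose and 9 of the 13 that did not pass. Among the antigen genes it was found in 6 of the 13 that fell, 1 of 1 that rose and 2 of 7 that did not pass. The Psmb8 promoter (chr20:4657026-4657281, minus strand, GRCr8), shown for the gene that fell furthest, holds it across the annotated start, in capitals on the opposite strand.
Psmb8: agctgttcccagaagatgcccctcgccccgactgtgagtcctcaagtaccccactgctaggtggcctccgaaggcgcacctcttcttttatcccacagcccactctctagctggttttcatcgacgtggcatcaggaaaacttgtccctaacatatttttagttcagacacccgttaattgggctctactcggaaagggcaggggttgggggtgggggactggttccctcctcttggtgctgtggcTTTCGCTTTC

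In the complement and coagulation list 13 of 20 tested genes fell and 4 rose (median -0.69; 9 and 1 after normexp). C1r, a protease of the first complement complex, gave 3.70, 3.53 and 3.73 in hypoxia and 1.21, 1.08 and 1.15 with quercetin, a change of -2.51 ± 0.11 (adjusted p = 2.5e-06), and its partner protease C1s fell by 2.77 ± 0.15. Serping1, the inhibitor of both, gave 0.19, 0.19 and 0.37 in hypoxia and -3.18, -3.10 and -2.94 with quercetin (-3.32 ± 0.22), though a further probe fell by 0.79. Both proteases and their inhibitor were lower on each quercetin array than on any hypoxia array. The protein C receptor Procr fell by 2.12 ± 0.16.

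Most contractile genes fell with quercetin. Of 29 tested, 19 fell (65.5%) and 3 rose, with a median of -0.65; 14 of the 29 lie in the brightest bin, and 13 fell after quantile normalization. Cnn1, a calponin of differentiated smooth muscle, gave 4.19, 4.07 and 4.07 in hypoxia and 1.71, 1.5 and 1.62 with quercetin, a change of -2.50 ± 0.13 (adjusted p = 4.7e-06). Its normoxia arrays lay between the groups. Ppp1r14a, the inhibitor of myosin phosphatase, fell by 2.44 ± 0.18, the actin-binding Tagln by 1.68 ± 0.15, and the smooth muscle myosin Myh11 by 1.45 ± 0.16 with a further probe at -0.69. The cardiac actin Actc1 changed by -1.26 and the skeletal actin Acta1 by -2.05, the latter not past the threshold after normexp. The intermediate filament protein Synm rose by 1.59 ± 0.14 and the nonmuscle myosin Myh10 by 0.95 ± 0.15. The summed signal of the smooth muscle markers, which overlap this list, was 398 to 420 in hypoxia and 140 to 168 with quercetin. In normoxia it was 188 to 319, so the quercetin arrays lay below both other groups. Tagln weighs most in that sum, with log2 means of 8.25 in hypoxia and 6.57 with quercetin.

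Striated-muscle myosins gave some of the largest falls of all. Myh2, a fast skeletal myosin, gave 1.92, 1.99 and 1.68 in hypoxia and -3.22, -3.19 and -3.22 with quercetin, a change of -5.08 ± 0.31 (adjusted p = 8.8e-06). The embryonic myosin Myh3 fell by 3.73 ± 0.28 and by 4.30 on a further probe. In normoxia Myh2 gave -2.36, -2.22 and -1.03, nearer the quercetin arrays than the hypoxia arrays.

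The factors that drive smooth muscle genes did not share that direction: 6 of 21 rose and 4 fell (7 without quercetin array 2), with a median of 0.01 that changed sign relative to all genes under normexp. Srf, the serum response factor, rose by 0.82 ± 0.08, its coactivator Mrtfa by 0.48 and Hand2, of the same programme, by 1.5 ± 0.09 with a further probe at 0.92. Myocd, the muscle-restricted coactivator, fell by 0.74 ± 0.15 and Tbx4 by 1.37 ± 0.24; the calls of Mrtfa, Myocd and Tbx4 were lost after normexp. Foxo1 changed by 0.38 without passing (adjusted p = 0.075).

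**Figure D4:**
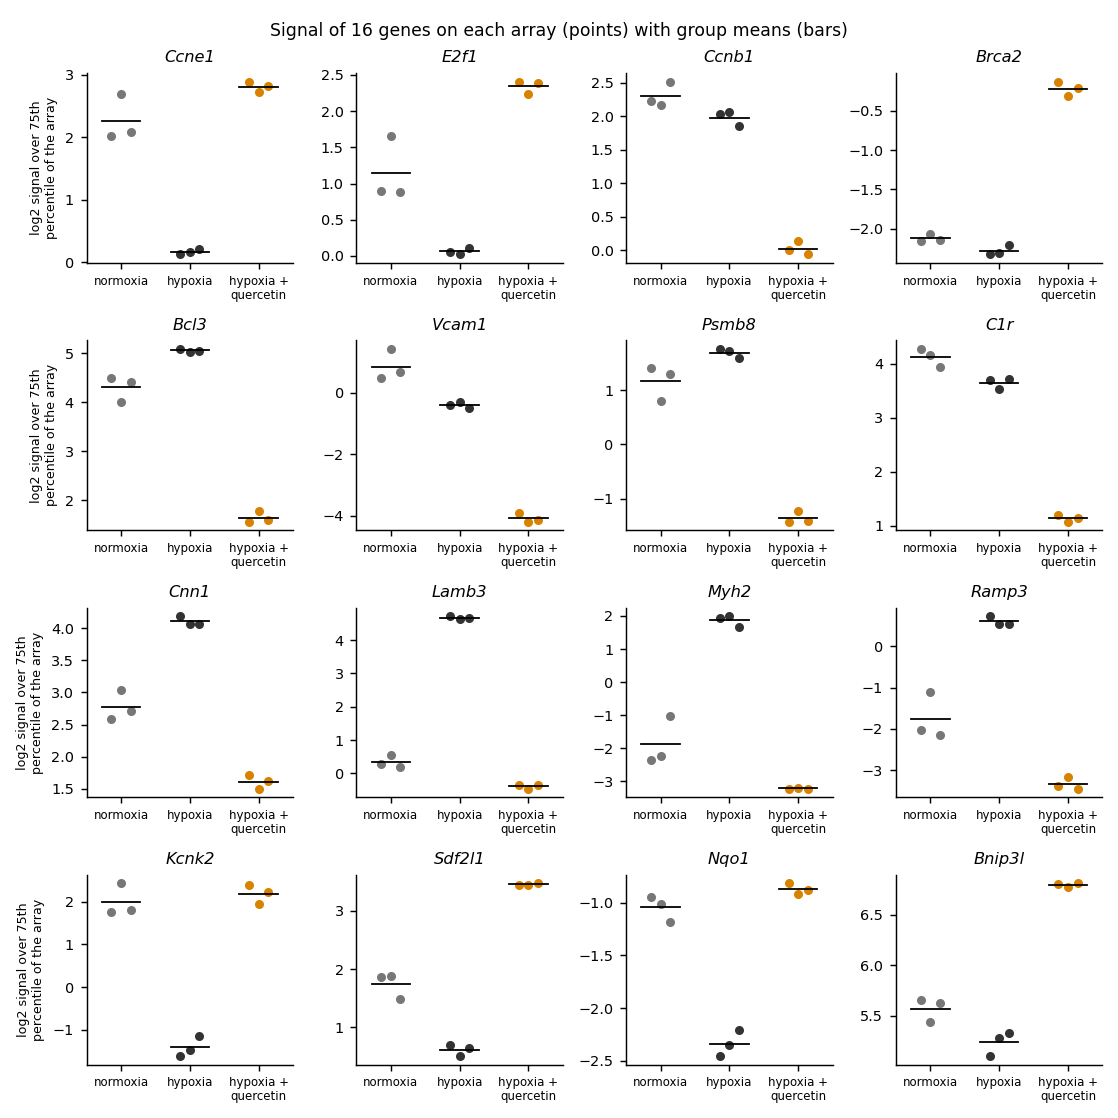
Signal on each array (points; log2 over the array's 75th percentile) and group mean (bars) of 16 genes in normoxia, hypoxia and hypoxia with quercetin, each panel with its own axis. In each panel the 3 quercetin arrays lie apart from the 3 hypoxia arrays.

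Vessel tone genes shifted by single receptors and channels. In the vasoactive list 40 of 53 genes were tested, 19 lower and 8 higher; its median of -0.56 stood at 0.00 relative to all genes after normexp, with 12 lower and 4 higher. Ramp3, which turns the calcitonin receptor-like receptor into an adrenomedullin receptor, gave 0.73, 0.55 and 0.55 in hypoxia and -3.39, -3.17 and -3.45 with quercetin (-3.95 ± 0.25, adjusted p = 1.0e-05). Enpp2, the enzyme that makes lysophosphatidic acid, gave 1.39, 1.43 and 1.16 in hypoxia and -4.70, -3.27 and -4.09 with quercetin (-5.35 ± 0.30), with 2 of 3 quercetin arrays above background. Ptgis, the prostacyclin synthase, gave 2.78, 2.68 and 2.70 in hypoxia and 0.89, 0.68 and 0.78 with quercetin (-1.93 ± 0.10). None of these 3 genes had overlapping arrays. The endothelin receptor Ednra gave -1.88, -1.78 and -1.75 in hypoxia and -3.06, -2.96 and -3.02 with quercetin (-1.22 ± 0.16), a call lost after normexp. Htr2b, a serotonin receptor, rose by 2.27 ± 0.13, with 2 of 3 hypoxia arrays above background, and the vasopressin receptor Avpr1a by 1.68 ± 0.16.

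Among ion channels 35 of 50 were tested, 14 lower and 9 higher with a median of -0.50. These are 40% and 25.7%, against 31.5% and 26.9% of all genes. Normexp left 8 lower and 6 higher with a median of 0.03, which is -0.105 relative to all genes. Kcnk2, the stretch-gated background potassium channel TREK-1, gave -1.62, -1.49 and -1.15 in hypoxia and 2.39, 1.96 and 2.22 with quercetin, an increase of 3.61 ± 0.21 (adjusted p = 7.5e-06), which brought it to the range of the normoxia arrays. Kcnj8, the pore of the vascular ATP-sensitive potassium channel, was well above background on 3 of 3 quercetin and 0 of 3 hypoxia arrays, at least 5.28-fold higher. Kcnk6, another background potassium channel, fell by 2.08 ± 0.11 and the cation channel Trpm4 by 1.49 ± 0.09. The calcium release channels Itpr2 and Itpr3 fell by 1.95 ± 0.10 and 2.09 ± 0.19, calls that were lost after normexp; a further probe of Itpr2 gave -0.79, and Itpr3 was above background on 2 of 3 quercetin arrays. Of the cyclic nucleotide genes 12 of 35 rose and 9 fell (7 and 3 after normexp). These are 34.3% and 25.7%, against 26.9% and 31.5% of all genes. The natriuretic peptide receptor Npr1 rose by 1.45 ± 0.14. Gucy1b1, a subunit of the nitric oxide receptor, rose by 1.39 ± 0.15 with 2 of 3 hypoxia arrays above background. Pde7a rose by 1.09 and the regulatory subunit Prkar1b fell by 1.24. Pde1a changed by -2.08 with none of the 3 quercetin arrays above background, and by 0.16 after normexp.

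Most genes fell in the lists of collagens, their processing enzymes and other matrix glycoproteins. For collagen chains 17 of 26 fell and 2 rose (median -0.57; 11 and 4 after quantile normalization), for collagen maturation 16 of 26 fell and 1 rose (median -0.63; 12 and 3), and for glycoproteins and proteoglycans 23 of 39 fell and 3 rose (median -0.55; 19 and 4). In the brightest bin lie 12, 13 and 14 members of these lists. The basement membrane chain Col4a5 fell by 2.17 ± 0.13 with a further probe at -1.27, and Col6a1 by 1.60 ± 0.15. Col12a1 fell by 1.51 ± 0.15 on its brightest probe, but its other probe gave -4.27. Col16a1 was lower by a change of -1.26 ± 0.09. Col1a1, the main fibrillar chain, changed by -0.27 without passing (adjusted p = 0.087), and the fall of Col3a1 by 0.50 did not pass after quantile normalization. Col11a2 rose by 1.69 ± 0.31 and Col8a1 by 0.50 ± 0.14, of which Col8a1 was lost after normexp.

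Of the enzymes that finish collagen, the procollagen protease Bmp1 fell by 1.32 ± 0.10 with further probes at -0.52 and -1.16, its enhancer Pcolce by 1.23 ± 0.10, the prolyl hydroxylase P4ha3 by 1.27 ± 0.12 and the chaperone Fkbp10 by 0.82 ± 0.08. Mfap4, a microfibril protein, fell by 1.98 ± 0.12, the small proteoglycans Fmod and Aspn by 1.85 ± 0.10 and 1.90 ± 0.13, and Fn1, fibronectin, by 0.47 with a further probe at -1.09. Fn1 did not pass after quantile normalization. The summed signal of the fibroblast markers, some of which are collagens, was 1204 to 1311 in hypoxia and 812 to 960 with quercetin; 6 of its 9 tested genes fell, among them Fap and Thy1 with changes of -2.28 ± 0.11 and -1.26 ± 0.11. The part of fibroblasts in the result was not tested.

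Lamb3, a chain of the epithelial basement membrane laminin, had the smallest adjusted p-value of the genes named here. It gave 4.72, 4.64 and 4.66 in hypoxia and -0.34, -0.46 and -0.34 with quercetin, a change of -5.05 ± 0.10 (adjusted p = 3.9e-07), and further probes fell by 4.11 and 5.06. The quercetin arrays were also below the normoxia arrays, which lay near 0. Of laminins and integrins 13 of 23 fell and 3 rose (median -0.57; 7 and 2 after normexp), and Itgb5 and Itga9 rose by 1.71 ± 0.16 and 1.56 ± 0.15, a further probe of Itgb5 giving 0.69. Among matrix proteases 12 of 32 fell and 9 rose (37.5% and 28.1%), near the background shares of 31.5% and 26.9%. Mmp9, a gelatinase, gave -0.40, -0.48 and -0.47 in hypoxia and -4.44, -3.32 and -4.04 with quercetin (-3.48 ± 0.29). The sheddase Adam10 rose by 2.26 ± 0.18 with a further probe at 1.73. Mmp9 was above background on 2 of 3 quercetin arrays and Adam10 on 2 of 3 hypoxia arrays.

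Epithelial and mesothelial markers had a summed signal of 66.3 to 75.1 in hypoxia against 15.2 to 17.0 with quercetin and 20.7 to 22.7 in normoxia. Krt7 and Msln make up most of the hypoxia sum, with log2 means of 5.23 and 4.79. Krt18, Krt7 and Krt8, keratins of simple epithelium, fell by 3.22 ± 0.51, 2.39 ± 0.17 and 1.48 ± 0.23, and Msln, mesothelin, by 1.89 ± 0.08, all but Krt8 also after normexp; Krt8 was above background on 2 of 3 quercetin arrays. As given above, Epcam, Cdh1 and Krt19 were at background, and the part of such cells in these falls was not tested. Over all intermediate filaments 8 of 17 fell and 4 rose (4 and 3 after normexp); the lamins parted, with Lmna lower by a change of -1.57 ± 0.10 and Lmnb2 higher by 2.02 ± 0.15.

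Among genes of the oxygen response more fell than rose. Of 35 HIF targets outside glycolysis, 15 fell (42.9%) and 2 rose, with a median of -0.70. Of these 35 genes 22 lie in the brightest bin, where 54.5% of all genes fell, a larger share than in the list. After quantile normalization 11 fell with a median of -0.43, and after normexp 10 fell. The 3 arrays of each group were apart, with quercetin below, for 26 of the 35, against 39.1% of all genes. The fit that used the 6 hypoxic arrays alone called 25 of the 35 lower, beside 7684 of all 22102 genes. The fit without normoxia array 2 called 26 of the 35 lower, beside 7609 of all 22102 genes. For these 3 counts no share within the brightest bin is given here. Ankrd37 spread widely over the normoxia arrays: it gave 6.20, 6.22 and 6.18 in hypoxia, 3.59, 3.91 and 3.61 with quercetin and 3.79, 1.33 and 4.19 in normoxia, so that the change of -2.50 carries a standard error of 0.63 (adjusted p = 0.0091). Stc2, a secreted glycoprotein, fell by 2.58 ± 0.18, Ddit4, the inhibitor of mTORC1, by 2.16 ± 0.40, Igfbp3 by 1.87 ± 0.28 and Vhl, which marks HIF for destruction, by 0.84 ± 0.15.

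Of the best-known HIF targets, some passed and others did not. Pdk1, which keeps pyruvate out of mitochondria, gave 2.78, 2.84 and 2.83 in hypoxia and 1.17, 1.29 and 1.13 with quercetin (-1.62 ± 0.45, adjusted p = 0.014). The carbonic anhydrase Car9 gave 4.36, 4.32 and 4.35 in hypoxia and 3.35, 3.26 and 3.31 with quercetin (-1.03 ± 0.35, adjusted p = 0.032), and its call was lost after quantile normalization, normexp and on leaving out single arrays. The arrays did not overlap in either gene, and those of each compared group lay close together. The normoxia arrays, which share in the estimate of the spread, lay further apart. They gave 1.22, -0.635 and 1.34 for Pdk1 and 1.97, 0.77 and 2.42 for Car9. Slc2a1, the glucose transporter GLUT1, changed by -0.51 and Vegfa by -0.26 without passing (adjusted p = 0.36 for both); Slc2a1 passed without normoxia array 2 (adjusted p = 0.008). Hif1a changed by -0.05 (adjusted p = 0.74). Bnip3l, a mitophagy receptor, rose instead, from 5.10, 5.28 and 5.32 to 6.80, 6.77 and 6.81 (1.56 ± 0.10, adjusted p = 9.1e-06).

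The hypoxia response core, ACGTG or GCGTG on either strand, occurred in 20 of 28 HIF targets with a promoter (71.4%), against 42.9% of all promoters and 60.6% of those of genes tested: in 12 of the 14 that fell and 8 of the 14 that did not pass. The Ankrd37 promoter (chr16:53001257-53001507, plus strand, GRCr8) is shown as that of the listed gene with the largest fall that holds it; capitals mark its 5 matches, of which one pair overlaps.
Ankrd37: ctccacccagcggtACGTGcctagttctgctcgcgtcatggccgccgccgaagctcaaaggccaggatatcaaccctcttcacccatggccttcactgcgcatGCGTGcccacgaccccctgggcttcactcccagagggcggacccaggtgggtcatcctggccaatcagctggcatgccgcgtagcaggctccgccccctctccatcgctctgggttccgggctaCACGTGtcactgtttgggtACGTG

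Of 24 glycolysis genes 16 fell and 1 rose (median -0.74), with 8 and 2 after quantile normalization and 9 and 1 after normexp; 11 of the 24 lie in the brightest bin. Without hypoxia array 1, quercetin array 1 or quercetin array 3 the count of lower genes was 10. Phosphofructokinase Pfkm fell by 1.28 ± 0.09, Aldoc by 2.11 ± 0.35, Pgk1 by 1.49 ± 0.31 and Gapdh by 0.77 ± 0.14. Pfkfb1, which makes the sugar phosphate that activates phosphofructokinase, rose by 2.38 ± 0.25. The tricarboxylic acid cycle had 12 lower and 6 higher of 25, 11 in the brightest bin, but 6 and 7 after quantile normalization. Its median relative to all genes stayed below 0 under every scaling, and was -0.02 after quantile normalization. The respiratory chain (21 lower and 6 higher of 51, but 6 and 20 after quantile normalization) had no direction that all scalings shared. Of these 51 genes 38 are in the brightest bin. Idh2, the mitochondrial isocitrate dehydrogenase, fell by 1.27 ± 0.11.

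Counts of protein synthesis genes also depended on the scaling. Of 63 cytosolic ribosomal proteins 54 fell and 0 rose (median -0.53), but 62 of the 63 lie in the brightest bin. After quantile normalization 9 fell and 2 rose with a median of -0.07. With spike-in scaling 46 fell and 0 rose, and with normexp 37 fell and 0 rose. Rpl3 showed the largest fall among those named, 1.30 ± 0.13. Ribosome biogenesis genes, which build the ribosome in the nucleolus, counted 17 higher and 13 lower of 55, a lean that turned relative to all genes after normexp. Among them the rRNA processing factor Heatr1 rose by 2.89 ± 0.12, with 2 of 3 hypoxia arrays above background, Ddx18 by 1.38 ± 0.10 and Nolc1 by 1.11 ± 0.07.

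Single stress genes of the endoplasmic reticulum changed strongly in either direction. Of 32 chaperone and degradation genes of the organelle, 17 of them in the brightest bin, 12 rose and 8 fell (14 and 2 after quantile normalization, 6 and 6 after normexp). Sdf2l1, a partner of the chaperone BiP, gave 0.70, 0.51 and 0.65 in hypoxia and 3.45, 3.44 and 3.47 with quercetin, an increase of 2.83 ± 0.12 (adjusted p = 2.5e-06), and Derl3, of the retrotranslocation machinery, rose by 3.35 ± 0.17 with 2 of 3 hypoxia arrays above background. Dnajb11 rose by 1.30 ± 0.11 and Hyou1 by 0.81 ± 0.08. The ATF4 arm gave 9 lower and 1 higher of 31, near the background share for falls and 5 lower without hypoxia array 1 or quercetin array 1, yet its regulators were among those that fell. Nupr1, a stress-induced chromatin protein, gave 7.90, 7.87 and 7.84 in hypoxia and 5.96, 5.72 and 5.97 with quercetin (-1.99 ± 0.12), Ddit3, encoding CHOP, fell by 1.44 ± 0.17, Atf4 by 1.04 ± 0.16 and Atf5 by 0.99 ± 0.20.

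Heat shock genes counted 11 of 33 lower and 9 higher, near the background shares. The constitutive chaperone Hspa8 fell by 1.72 ± 0.18 on 4 probes that gave -1.72 to -1.80, and the small heat shock proteins Cryab and Hspb2 by 1.73 ± 0.10 and 1.69 ± 0.14, the last not past the threshold after normexp. Hsph1, a nucleotide exchange factor of HSP70, rose by 1.46 ± 0.13. Hspa4, of the same family, rose by 4.04 ± 0.14, the largest rise among passing genes with a symbol that were above background on all 6 arrays without overlap. Its other probe rose by 0.37, so the size rests on 1 probe. In the proteasome, with 21 of 39 genes in the brightest bin, 14 fell and 9 rose, turning to 4 and 15 after quantile normalization.

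Targets of NRF2, the factor that answers oxidants and electrophiles, showed no common direction: 10 of 31 rose and 7 fell, near the background shares, and 4 fell on leaving out any 1 hypoxia array, quercetin array 1 or quercetin array 3. Nqo1, a quinone reductase, gave -2.45, -2.35 and -2.21 in hypoxia and -0.82, -0.92 and -0.88 with quercetin, an increase of 1.47 ± 0.10 (adjusted p = 1.2e-05), close to the normoxia arrays. Taldo1, transaldolase, rose by 1.09 ± 0.13. Hmox1, heme oxygenase, gave 5.30, 5.25 and 5.31 in hypoxia and 4.89, 6.12 and 5.01 with quercetin (0.05 ± 0.56, adjusted p = 0.94), its groups overlapping because quercetin array 2 lay above and the others below. The glutathione transferases Gstm1 and Gstm2 fell by 0.95 and 1.08. Gclm was not tested because its probe did not clear background on all 3 arrays of any group.

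Among other genes that handle foreign compounds, 11 of 20 fell and 4 rose (median -0.48). The drug efflux pump Abcb1b gave -0.66, -0.61 and -0.60 in hypoxia and 1.15, 1.29 and 1.18 with quercetin, an increase of 1.83 ± 0.09 (adjusted p = 4.2e-06). Gstt1 fell by 2.00 ± 0.17, and the sulfate donor synthases Papss2 and Papss1 by 2.18 ± 0.27 and 0.96 ± 0.12, with a further probe of Papss2 at -1.49. Of the aryl hydrocarbon receptor pathway 1 of 7 tested genes passed: Arnt, the dimer partner of that receptor and of HIF, fell by 0.77 ± 0.11, but not past the threshold after normexp. The receptor's classical targets Cyp1a1 and Cyp1a2 did not clear background on all 3 arrays of any group, and Cyp1b1 (0.33, adjusted p = 0.20) and Tiparp (-0.32, adjusted p = 0.52) did not pass.

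Single enzymes of lipid synthesis rose, although their lists had members on both sides. Fasn, the fatty acid synthase, gave 1.78, 1.66 and 1.74 in hypoxia and 3.57, 3.69 and 3.71 with quercetin, an increase of 1.93 ± 0.09 (adjusted p = 3.4e-06), and a further probe gave 1.94. Sqle, squalene epoxidase, gave 2.15, 2.08 and 2.09 in hypoxia and 3.79, 4.13 and 3.99 with quercetin (1.86 ± 0.12). Neither gene had overlapping groups. Acat2 rose by 2.17 ± 0.15 and Tm7sf2 by 1.43 ± 0.13, while Stard4, a sterol carrier, fell by 1.60 ± 0.24, a call lost after normexp, with 2 of 3 quercetin arrays above background. In the cholesterol list 11 of 25 rose and 7 fell (9 and 2 after normexp), in fatty acid synthesis 4 of 17 rose and 7 fell (4 without quercetin array 2), and in fatty acid oxidation 2 of 31 rose and 13 fell (median -0.30), with Eci1 lower by a change of -1.25 ± 0.10. Acaca, which makes malonyl-CoA, rose by 2.00 ± 0.09 on its brighter probe while the other gave -0.22.

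Growth factor pathways had members on both sides. In TGF-beta and BMP signalling 11 of 39 rose and 9 fell, near the background shares. The ligand Tgfb1 fell by 0.97 ± 0.11 and Tgfb2 rose by 1.21 ± 0.14; the receptors Tgfbr2 and Acvrl1 fell by 1.66 ± 0.10 and 1.74 ± 0.15; the antagonists Fst and Bambi rose by 1.63 ± 0.12 and 1.62 ± 0.12. Bmpr2, the receptor gene of heritable pulmonary arterial hypertension, changed by -0.24 without passing (adjusted p = 0.15). Among PDGF, FGF, EGF and IGF genes 17 of 43 fell and 12 rose (9 and 5 after normexp), with the binding proteins Igfbp6 and Igfbp4 lower by changes of -2.04 ± 0.11 and -1.46 ± 0.11, Fgf2 lower by a change of -1.79 ± 0.21 with a further probe at -0.99, and Irs2, the insulin receptor substrate, higher by 1.38 ± 0.08 with further probes at 1.58, 0.99, 0.72 and 0.48. Akt1 and Mtor, kinases of the same axis, rose by 0.84 ± 0.15 and 1.29 ± 0.08.

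Notch and Wnt genes were balanced at 9 higher and 9 lower of 33, near the background shares (5 and 3 after normexp). Notch4, a receptor best known from endothelium, gave 3.72, 3.72 and 3.82 in hypoxia and -0.23, 0.03 and -0.23 with quercetin, a change of -3.90 ± 0.38 (adjusted p = 7.2e-05). The summed endothelial markers were 9.61 to 10.5 in hypoxia and 5.89 to 7.07 with quercetin. That sum is nearly all Egfl7, with log2 means of 3.29 in hypoxia and 2.68 with quercetin. Cdh5 had means of -3.20 and -4.43. Of 3 endothelial markers tested, 2 fell, Cdh5 by 1.22 ± 0.25 and Egfl7 by 0.60 ± 0.12. The part of endothelial cells in the result was not tested. Cdh5 was above background on 2 of 3 quercetin arrays and did not pass after normexp. Axin2, a feedback target of Wnt, rose by 1.44 ± 0.10 and the receptor Fzd1 by 2.07 ± 0.20. Of immediate-early and MAPK feedback genes 11 of 33 fell and 9 rose, near the background shares. The ETS factors Etv1 and Etv4, which follow ERK activity, fell by 2.29 ± 0.13 and 1.56 ± 0.19, and Junb by 1.03 ± 0.10. Further probes of Etv1 gave -2.66, -2.15 and -1.42.

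Among iron genes the reductase Cybrd1 and the exporter Slc40a1 changed strongly in opposite directions. Cybrd1, a ferric reductase, gave 4.53, 4.51 and 4.54 in hypoxia and 2.60, 2.53 and 2.66 with quercetin (-1.93 ± 0.07, adjusted p = 1.7e-06). Slc40a1, which encodes the iron exporter ferroportin, gave -3.64, -4.00 and -3.80 in hypoxia and -0.93, -0.79 and -0.98 with quercetin (2.91 ± 0.11), with 2 of 3 hypoxia arrays above background and a further probe at 1.54. The groups were well apart in both, though the iron list as a whole had 7 lower and 3 higher of 24, below the background shares. In the circadian clock 10 of 21 genes fell and 1 rose (median -0.48; 4 and 1 after normexp). The negative limb and output genes Per1, Per2, Per3 and Dbp fell by 1.37 ± 0.15, 1.10 ± 0.13, 1.52 ± 0.11 and 1.38 ± 0.15, and Cry1 rose by 0.80 ± 0.14; Per3 did not pass after normexp.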

How the data were processed

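RNA of 9 samples of rat cells was hybridised to 1-colour Cy3 arrays. Per the file headers, the deposited spot intensities were made with Agilent Feature Extraction 10.7.3.1, which subtracted and detrended the background and did not normalize between arrays. Per the labels' protocols the RNA was labelled with a microRNA kit, whereas the file headers name a gene expression protocol; which was used is unclear, and the probes carry gene annotation. The authors' deposited value table is on a log2 scale with equal quantiles on all arrays, a step not described in the sources used here; it served as an alternative only, and correlated with the scanner values at 0.991 to 1.000 per array.

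Here, control spots were left out, spots with an outlier flag were set missing, spots of a probe were averaged, and log2 of the processed intensity minus the 75th percentile of its array was taken. No spot was saturated. Probes were kept if the scanner software marked them as well above background on each of the 3 arrays of some group, which left 26655 of 41012 and gave 22102 genes, 11851 of them with a symbol, each by its brightest probe. Names came from RefSeq (GRCr8): 18028 probes by accession, 147 by another accession, 3168 by symbol, 400 by synonym, with the name in the file kept for 19269. Further probes of a gene are printed where they lie over 0.5 from the one used, and for some other genes; in 88.3% of 2887 pairs of called genes both probes had the same sign.

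The contrast of quercetin against hypoxia was fitted with limma 3.58.1 in R 4.3.3 over all 9 arrays (lmFit and eBayes, two-sided, 6 residual and 2.3 prior degrees of freedom), with Benjamini-Hochberg adjustment over the 22102 genes and a threshold of 0.05. Each ± is a standard error of that fit with 3 arrays in a group; the number of arrays limits the precision. A fold against a group at background is a lower bound, taken against the higher of the dimmest signal well above background and the probe's own on each array. The code was tested on simulated data. Genes named include the 12 largest rises and 12 largest falls, and the 6 largest bounds in each direction, all among genes with a symbol. The largest rises and falls also had to pass, to have groups that did not overlap, and to be above background on all 6 arrays. Further named genes are up to 4 members of each list in its commoner direction and 2 in the other by adjusted p. The genes of the promoters selected by motif and a set list of well-known genes complete them. Gene lists and members were chosen with earlier results of these data known. Alternatives were normexp (offset 50), median, quantile and spike-in scaling (6 probes), other probe filters, probe means, the 6 hypoxic arrays alone, the deposited table, a replicate block, slide as a random block, a 2-fold minimum, and leaving out each array. Some genes and 1 list are not reported here.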

Additional observations from a re-analysis of the deposited data

How the results depend on the processing

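The 12907 calls became 6159 with normexp (2820 higher, 3339 lower) and 4557 with a 2-fold minimum (2369 higher, 2188 lower). Leaving out each array in turn gave 10991 to 14030 calls, 5095 to 6421 higher and 5730 to 7609 lower. The other alternatives kept the counts within 1.5 times: 11191 called of 35063 genes without a filter on dim probes, and 10564 of 16583 with probes above background on all 9 arrays. Of 359 named genes that passed, 284 passed under every alternative in which they were tested, and 10 were lost on leaving out some single array. The 2-fold minimum was left out of this count. Signs reversed with normexp for Acss2 (0.069), Casp8 (0.015), Csf1r (0.13), Pde1a (0.16), Tfe3 (0.0096) and Wnt2 (0.069), none of which passed then; with the mean of its probes for Me1 (-0.039); and for Cdkn1a after quantile normalization (0.43) and in the deposited table (0.42). The cause was not tested. Relative to all genes, the median of 21 of the 57 lists changed sign under some scaling: the AhR, NRF2, mismatch and excision repair, respiratory chain, mitochondrial ribosome, ribosome biogenesis, tRNA synthetase, ATF4, ER chaperone, heat shock, proteasome, fatty acid synthesis, autophagy, smooth muscle factor, vasoactive, cyclic nucleotide, matrix protease, TGF-beta, Notch and Wnt, YAP and iron lists. For genes not above background on every array of a group, the size of a change is uncertain.

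The replicate numbers of the titles gave no sign of pairing, since deviations of same-numbered hypoxia and quercetin arrays correlated at -0.06, -0.02 and 0.02. With the replicate number as a block, 11970 genes passed, 5514 higher and 6456 lower.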

Other observations

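Several of the largest changes fell outside the gene classes above. Cklf, a small chemokine-like factor, rose by 3.53 ± 0.29, the phosphatase Ppm1l by 3.24 ± 0.19 with further probes at 1.02 and 1.87, Odf2l by 3.14 ± 0.18 with a further probe at 3.24, the connexin Gjb2 by 3.09 ± 0.29, Eid2b by 3.04 ± 0.18 and the adhesion protein Flrt2 by 2.86 ± 0.18. On the other side, the neural adhesion molecule Lsamp fell by 3.54 ± 0.32, Myoc, myocilin, by 3.47 ± 0.40, Plekha4 by 3.46 ± 0.25, Jazf1 by 3.43 ± 0.12 and the muscle carbonic anhydrase Car3 by 3.40 ± 0.31. Passing limma's test and having groups whose arrays do not overlap were conditions for choosing these genes. Of all genes tested, 58.4% passed and 71.1% did not overlap.

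Detection in one group alone concerned few of the 22102 genes tested. There were 141 well above background on 3 of 3 quercetin and 0 of 3 hypoxia arrays, and 19 the other way round. The 75th percentile of spot signal was 439 to 462 on the hypoxia arrays and 450 to 504 on the quercetin arrays. The part of array signal in these counts was not tested. Among genes with a symbol, the largest lower bound was 9.68-fold higher for Gpr155, whose further probe changed by only 1.59 on the log2 scale. Next came 8.57-fold for Cox8b, a muscle isoform of a cytochrome oxidase subunit, 7.02-fold for Dido1 and 6.60-fold for Baat, which conjugates bile acids. Going down, after Ccl19 and Ccl17, Kprp was at least 4.29-fold lower and the potassium channel Kcnt2 at least 4.03-fold lower, with a further probe at a log2 change of -3.48.

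Adhesion molecules counted 18 lower and 7 higher of 34 (median -0.41; 9 and 5 after normexp), with the syndecans opposed: Sdc1 fell by 1.45 ± 0.10 and Sdc2 rose by 1.86 ± 0.09. Targets of YAP and SRF counted 10 lower and 3 higher of 23, with Ankrd1 higher by 3.33 ± 0.63, with 2 of 3 hypoxia arrays above background, and the coactivator Wwtr1, or TAZ, lower by a change of -1.69 ± 0.16 with a further probe at -0.87. Autophagy and lysosome genes were level at 14 and 14 of 41 (6 higher and 8 lower after normexp); Ctsb, a cathepsin, rose by 0.96 ± 0.08 and Mcoln1, the lysosomal calcium channel, by 1.44 ± 0.10. Apoptosis regulators counted 10 lower and 8 higher of 31, near the background shares, with Bcl2 higher by 1.36 ± 0.17. Without hypoxia array 2 the higher count was 5. Bcl2, above background on 2 of 3 hypoxia arrays, did not pass after normexp. Mitochondrial ribosomal proteins counted 22 lower and 14 higher of 46, 16 of them in the brightest bin (16 and 18 after quantile normalization). Aminoacyl-tRNA synthetases counted 9 lower and 6 higher of 22 (40.9% and 27.3%). Histone demethylases with other dioxygenases counted 7 lower and 4 higher of 22 (31.8% and 18.2%). Over all genes these shares were 31.5% and 26.9%.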
